A study of Mus musculus with 20 samples.

Results

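The genes described here are 10 heat shock genes of the mouse lung: Hspa1a, Hspa1b, Hsph1, Hspb1, Dnajb1, Hspa8, Hsp90aa1, Hspd1, Hspe1 and Hsf1. They were taken by symbol from deposited tables of 24062 genes, all 10 were found, and all 10 passed the filter on low counts. The tables come from 20 RNA-seq libraries of whole lung, which make 16 samples once the A and B libraries of 1 number are summed, and the design asks what chronic hypoxia does to the lung transcriptome with and without arginase 2 (Arg2). There were 4 groups of 4 samples. Wild type room air samples came from Arg2+/+ mice kept at 21% oxygen, and wild type hypoxia samples from Arg2+/+ mice kept at 10% oxygen. Knockout room air and knockout hypoxia samples came from Arg2-/- mice kept at the same oxygen levels. All groups shared the mixed C57/129 strain, an age of 8 to 10 weeks, an exposure of 28 days and ketamine/xylazine anaesthesia before the lungs were taken. The labels give both sexes without saying which mouse was which. Mice from the chamber stayed in hypoxic gas until they were killed, and lungs were rinsed in ice-cold saline and snap frozen. The labels do not say how the Arg2-/- allele was made or which part of the gene it lacks, and give no restriction to a tissue.

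Heat shock proteins are chaperones that keep other proteins folded. In unstressed cells the transcription factor HSF1 is held inactive by chaperones; when unfolded proteins draw the chaperones away, HSF1 forms trimers, binds repeated nGAAn units in promoters and switches the chaperone genes on within minutes. Heat, handling, warming or cooling of tissue, and lack of oxygen are all known triggers, and the HSP70 genes are among the fastest to respond. The 10 genes cover the inducible and constitutive HSP70 proteins of the cytosol, their partners, a cytosolic HSP90, a small heat shock protein, the mitochondrial chaperonin pair and the factor HSF1 itself.

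The promoter stretches that carry head-to-head GAA and TTC units are shown because these units are what HSF1 is known to bind. Sequences are from the RefSeq promoter table of GRCm38.p6, 5′ to 3′ on the gene's own strand, with the matched units in capitals. The stretch upstream of Hspa1b (chr17:34959289-34959388, minus strand) is identical over its 100 bases to that of Hspa1a and is not repeated.

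Hspe1, chr1:55088053-55088082, plus strand: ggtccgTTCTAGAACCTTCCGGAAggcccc
Hspa1a, chr17:34972207-34972306, minus strand: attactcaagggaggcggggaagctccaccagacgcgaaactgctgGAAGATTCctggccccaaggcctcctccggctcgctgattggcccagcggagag
Hspb1, chr5:135887769-135887868, plus strand: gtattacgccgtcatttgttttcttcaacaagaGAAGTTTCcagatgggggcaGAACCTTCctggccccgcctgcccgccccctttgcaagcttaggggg

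A window from 250 bases before to 50 bases after the start was searched on both strands for 2, 3 or 4 alternating units (GAANNTTC, GAANNTTCNNGAA and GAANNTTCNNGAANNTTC, or the same starting with TTC). Longer forms contain the shorter ones. A window was on hand for 7 of the 10 genes. Hspe1 and Hspd1, which are transcribed away from each other on chromosome 1, share 1 run of 4 units, a form held by 0.024% of all 32851 windows. For Hspd1 the run lay in 1 of its windows, and the other held no match. Hsph1 held the 3-unit form, present in 0.603% of windows, and in each of its windows this match lay after the start. Hspa1a, Hspa1b and Hspb1 held the 2-unit form, present in 15.1% of windows, and Dnajb1 held none. The Hspe1 stretch lies in the first exon of an annotated Hspd1 transcript. A match describes letters in a window, not a site in use.

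Reads counted in genes ran from 9531270 in wild type room air sample 3 to 63331530 in knockout room air sample 3. Wild type room air sample 3 also had the lowest share of reads in genes, 25.4% of those in a gene or in none, against 35.5% to 64.2% elsewhere. Levels are CPM, a gene's counts scaled to a common library total with TMM factors. Calls rest on edgeR's quasi-likelihood test with an adjusted p under 0.05 over all 15766 genes tested. Knockout samples kept reads over Arg2. Arg2 stood at 8.47, 9.14, 11.8 and 7.30 CPM in wild type lungs in room air and at 6.33, 11.7, 10.1 and 9.13 CPM in wild type hypoxia. It stood at 4.58, 5.25, 4.88 and 7.78 CPM in knockout room air and at 4.57, 3.22, 5.37 and 3.97 CPM in knockout hypoxia. Room air sample 4 labelled knockout therefore lies within the wild type range, and the groups separate only in hypoxia, where Arg2 was 1.13 ± 0.22 (SE, log2) lower in the knockout (adjusted p = 0.00191). A gene-level count does not show which exons the reads cover, and genotypes are used here as labelled. Of 8 epithelial, 6 endothelial and 7 leukocyte marker genes, none was at 0 in every sample. The marker lists of other organs passed this too, so it does not establish lung identity. Group means of Sftpb, an epithelial marker, ran from 2316 to 2937 CPM.

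Hspa1a and Hspa1b encode the same inducible HSP70 protein from neighbouring single-exon genes on chromosome 17 (GRCm38, minus strand, 34969190 to 34972156 and 34956436 to 34959238), 9951 bases apart. Values are given in the order of samples 1 to 4. Hspa1a stood at 8.43, 13.9, 72.9 and 55.8 CPM in wild type lungs in room air and at 2.92, 5.88, 41.3 and 8.66 CPM in wild type hypoxia. It stood at 28.7, 75.7, 120.8 and 16.1 CPM in knockout room air and at 173.5, 67.3, 54.1 and 206.2 CPM in knockout hypoxia. Every knockout hypoxia sample lay above every wild type hypoxia sample, while both room air groups spread over several-fold and overlapped each other. Within hypoxia, Hspa1a was 3.10 ± 0.99 (SE, log2) higher in the knockout, a fold of 8.59 (adjusted p = 0.0411). This call did not hold when any of 8 single samples was left out, 7 of them hypoxia samples.

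Within each group Hspa1b ranked the samples as Hspa1a did. It read 6.18, 14.7, 100.4 and 65.99 CPM in wild type room air and 3.95, 7.44, 46.8 and 10.7 CPM in wild type hypoxia. In the knockout it read 40.9, 108.0, 179.0 and 19.3 CPM in room air and 411.4, 146.1, 135.3 and 471.6 CPM in hypoxia. From its lowest sample (wild type hypoxia 1) to its highest (knockout hypoxia 4) Hspa1b covered 119-fold, the widest span of the 10 genes. The hypoxia groups did not overlap, and Hspa1b was 4.08 ± 1.10 (SE, log2) higher in the knockout, a fold of 16.9 (adjusted p = 0.0201). The call was lost without wild type hypoxia sample 1, 2 or 4 or knockout hypoxia sample 4 (adjusted p up to 0.0545). Wild type hypoxia sample 3 held the group mean up: without it the difference was 5.30 for Hspa1b and 4.41 for Hspa1a on the log2 scale. Neither gene was called for hypoxia within a genotype, with log2 values of -1.32 ± 0.96 (Hspa1a) and -1.40 ± 1.02 (Hspa1b) in wild type and 1.06 ± 0.91 and 1.75 ± 0.98 in the knockout.

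The pair also differed in its mix. Of the counts of both genes, Hspa1b took 68.5% to 71.5% in the 4 knockout hypoxia samples and 42.3% to 59.7% in the other 12, so the ranges do not overlap. Most of the other 12 also had lower levels of both genes together. Knockout room air sample 3, at 120.8 CPM of Hspa1a and 179.0 CPM of Hspa1b, had a share of 59.7% (95% Wilson interval 59.0% to 60.4%). Knockout hypoxia sample 3, at 54.1 and 135.3 CPM, had 71.5% (69.9% to 73.0%). These 2 samples were picked after the values were seen. These intervals cover counting error only. The share was noticed in the data, and neither it nor its relation to level was tested. The 2 transcripts are near copies: 58.8% of the 50-base windows of Hspa1a and 62.3% of those of Hspa1b occur in the other. The deposited counts tally alignments that were not unique in a line that names no gene, at 2.34 to 12.44 per read in genes. Whether such reads were also counted to Hspa1a or Hspa1b is not stated. Their summed counts were 3.71 ± 1.06 (SE, log2) higher in knockout than in wild type hypoxia (adjusted p = 0.0263).

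**Figure D1:**
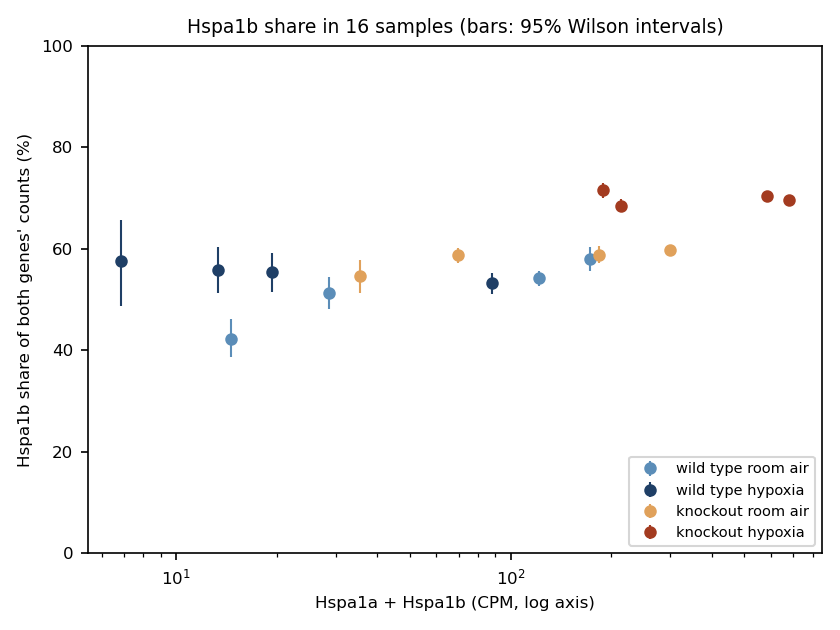
The share of Hspa1b in the counts of Hspa1a and Hspa1b together (y axis, percent, with 95% Wilson intervals) is plotted against their summed level (x axis, CPM, log axis) for 16 samples coloured by group. The 4 knockout hypoxia samples sit at 68.5% to 71.5%, above the shares of the other 12. Most of the other 12 lie at lower summed levels.

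Hsph1 encodes HSP110 (HSP105), which exchanges the nucleotide of HSP70 and helps to dissolve aggregates; no 50-base window of its transcript recurs in another gene. It stood at 43.4, 78.5, 181.3 and 114.9 CPM in wild type lungs in room air and at 32.6, 45.3, 85.3 and 56.2 CPM in wild type hypoxia. It stood at 88.8, 179.3, 213.4 and 50.1 CPM in knockout room air and at 393.0, 221.0, 217.9 and 443.8 CPM in knockout hypoxia. All 4 knockout hypoxia samples were above all other samples, though samples 2 and 3 of that group exceeded knockout room air sample 3 by little. Hsph1 was 2.54 ± 0.54 (SE, log2) higher in knockout than in wild type hypoxia (adjusted p = 0.00684). Hypoxia within the knockout gave 1.26 ± 0.52 (adjusted p = 0.12), which misses the threshold although the ranges do not overlap.

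Dnajb1 encodes the HSP40 that delivers clients to HSP70, on chromosome 8. It stood at 57.6, 83.7, 162.1 and 142.0 CPM in wild type lungs in room air and at 39.8, 60.5, 109.7 and 50.6 CPM in wild type hypoxia. It stood at 97.8, 158.2, 188.2 and 61.3 CPM in knockout room air and at 166.8, 136.2, 137.6 and 187.1 CPM in knockout hypoxia. The knockout hypoxia samples lay inside the knockout room air range, and above the wild type hypoxia samples. Dnajb1 was 1.27 ± 0.41 (SE, log2) higher in knockout than in wild type hypoxia (adjusted p = 0.0433), a call kept in 6 of 16 fits that each left out 1 sample, and hypoxia within the knockout gave 0.31 ± 0.41.

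Knockout room air sample 3 and knockout hypoxia sample 3 had nearly the same Hsph1 level, 213.4 and 217.9 CPM. Between these samples, Hspa1a and Dnajb1 were higher in room air, and Hspa1b was also higher in room air (179.0 against 135.3 CPM), whereas Hspa8, Hspb1, Hsp90aa1 and Hspe1 were higher in hypoxia. This pair was picked after the values were seen.

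Hspb1 encodes HSP27, an ATP-independent small heat shock protein (called HSP25 in mouse) that holds unfolding proteins and binds actin. It stood at 30.3, 27.8, 53.5 and 39.8 CPM in wild type lungs in room air and at 38.1, 37.7, 39.6 and 25.7 CPM in wild type hypoxia. It stood at 47.3, 100.5, 83.3 and 43.6 CPM in knockout room air and at 216.3, 116.0, 145.7 and 215.1 CPM in knockout hypoxia. The wild type groups overlap and the knockout hypoxia samples stand above the other 12. Hspb1 rose by 1.34 ± 0.30 (SE, log2) with hypoxia in the knockout (adjusted p = 0.00673), and was 2.30 ± 0.31 higher in knockout than in wild type hypoxia (adjusted p = 0.000388). In room air the knockout value was 0.88 ± 0.30 (adjusted p = 0.121), not called. The pseudogene Hsp25-ps1 shares 51.7% of the 50-base windows of Hspb1, so its level is uncertain.

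Hspa8 encodes HSC70, the constitutive cytosolic HSP70 that also uncoats clathrin vesicles and feeds chaperone-mediated autophagy. It read 114.5, 192.1, 224.6 and 203.1 CPM in wild type lungs in room air and at 65.99, 141.4, 175.6 and 122.3 CPM in wild type hypoxia. It stood at 186.4, 250.9, 296.1 and 139.7 CPM in knockout room air and at 510.0, 489.8, 484.6 and 626.7 CPM in knockout hypoxia. The 4 knockout hypoxia samples were close to each other (527.8 ± 66.9 CPM, SD, n = 4), and stood clear of the other 12, the highest of which was 296.1 CPM. Hspa8 rose by 1.27 ± 0.29 (SE, log2) with hypoxia in the knockout (adjusted p = 0.00772) and was 2.06 ± 0.30 higher in knockout than in wild type hypoxia (adjusted p = 0.000614). The second call held in all 29 alternative analyses and the first in 28.

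Hsp90aa1 encodes the inducible isoform of cytosolic HSP90, which matures kinases and steroid receptors and helps to keep HSF1 silent. It stood at 104.7, 80.9, 207.8 and 128.7 CPM in wild type lungs in room air and at 110.1, 107.5, 138.9 and 92.8 CPM in wild type hypoxia. It stood at 153.7, 232.0, 230.4 and 124.6 CPM in knockout room air and at 307.4, 256.0, 289.8 and 418.7 CPM in knockout hypoxia. Knockout hypoxia samples again lay above the other 12. Hsp90aa1 was 1.503 ± 0.28 (SE, log2) higher in knockout than in wild type hypoxia (adjusted p = 0.0027), and hypoxia within the knockout gave 0.78 ± 0.27 (adjusted p = 0.0663), just short of a call. Other annotated genes share 52.7% of the 50-base windows of Hspa8 and 58.5% of those of Hsp90aa1, so these levels are uncertain.

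**Figure D2:**
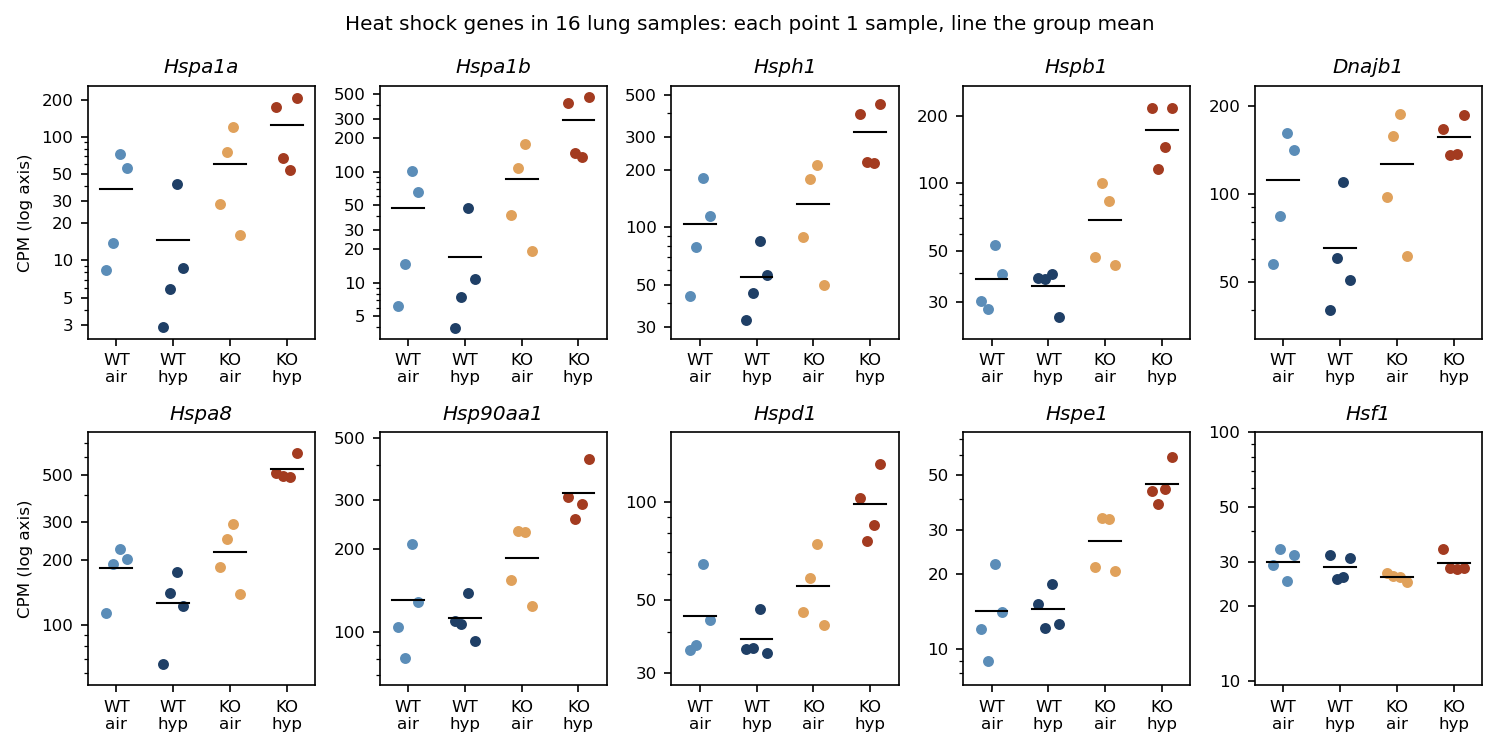
Each panel plots 1 of the 10 heat shock genes, with CPM on a log axis, the 4 groups on the x axis (WT wild type, KO knockout, air room air, hyp hypoxia), 1 point per sample and a line at the group mean. In the panels of Hsph1, Hspb1, Hspa8, Hsp90aa1, Hspd1 and Hspe1 all knockout hypoxia samples are above the other 12, in those of Hspa1a, Hspa1b and Dnajb1 they overlap the knockout room air range, and Hsf1 runs flat between 24.99 and 33.99 CPM.

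Hspd1 and Hspe1 encode HSP60 and HSP10, the barrel and lid of the mitochondrial chaperonin. The genes lie head to head on chromosome 1, and their annotated spans overlap by 112 bases on opposite strands. Hspd1 stood at 35.3, 36.5, 64.3 and 43.4 CPM in wild type lungs in room air and at 35.4, 35.7, 47.1 and 34.4 CPM in wild type hypoxia. It stood at 46.1, 58.3, 74.4 and 41.9 CPM in knockout room air and at 102.8, 75.9, 84.9 and 130.0 CPM in knockout hypoxia. The knockout hypoxia range only just clears knockout room air sample 3. Hspd1 rose by 0.84 ± 0.22 (SE, log2) with hypoxia in the knockout (adjusted p = 0.0145) and was 1.37 ± 0.22 higher in knockout than in wild type hypoxia (adjusted p = 0.000978).

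Hspe1 stood at 12.1, 8.99, 21.9 and 14.1 CPM in wild type lungs in room air and at 15.3, 12.1, 18.2 and 12.6 CPM in wild type hypoxia. It stood at 21.4, 33.6, 33.3 and 20.6 CPM in knockout room air and at 43.1, 38.4, 44.0 and 59.3 CPM in knockout hypoxia. Hspe1 thus has the knockout above the wild type in room air too, except that wild type sample 3 exceeds knockout samples 1 and 4. It rose by 0.77 ± 0.23 (SE, log2) with hypoxia in the knockout (adjusted p = 0.0317) and was 1.67 ± 0.24 higher in knockout than in wild type hypoxia (adjusted p = 0.000371). In room air the value was 0.98 ± 0.24 (adjusted p = 0.0648); it reached 0.00272 without wild type room air sample 3 and ranged up to 0.358 over the alternatives. The rise within the knockout was lost when any of 4 single samples was left out, 2 of them in room air, and that of Hspd1 when knockout hypoxia sample 4 was.

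Hsf1, the factor that switches these genes on, passed the test in no comparison. It stood at 29.4, 33.9, 25.2 and 32.0 CPM in wild type lungs in room air and at 32.1, 25.7, 26.2 and 31.2 CPM in wild type hypoxia. It stood at 27.2, 26.5, 26.2 and 24.99 CPM in knockout room air and at 34.0, 28.5, 28.2 and 28.3 CPM in knockout hypoxia. Its highest sample was 1.36 times its lowest. Hsf1 gave 0.05 ± 0.10 (SE, log2) between the genotypes in hypoxia (adjusted p = 0.766), and its sign there turned under 5 of 29 alternatives. HSF1 is known to be switched on at the protein level, which RNA counts do not measure.

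Counted together, 9 of the 10 genes were called higher in knockout than in wild type hypoxia, where 11.0% of all genes were called higher and 23.0% in either direction. For the same 9 genes every knockout sample was above every wild type sample, a pattern held by 13.3% of all genes. The median over the 10 genes was 1.87 on the log2 scale against -0.01 over all genes tested. Hspb1, Hspa8, Hsp90aa1, Hspd1 and Hspe1 were called in all 29 alternatives, and Hsph1 in 28. In whole lung, more RNA per cell and more cells of a type rich in these RNAs cannot be told apart.

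Hypoxia within the knockout called 4 of the 10 genes higher (Hspb1, Hspa8, Hspd1 and Hspe1), where 7.93% of all genes were called higher and 17.0% in either direction. For 7 of the 10 every hypoxia sample was above every room air sample, against 12.7% of all genes, the exceptions being Hspa1a, Hspa1b and Dnajb1. The median over the 10 genes was 0.94 on the log2 scale and all 10 values were positive. The count was 2 without knockout hypoxia sample 4, where 2011 of all genes were called in either direction, against 2685 in the main fit. It was also 2 without the 4 samples highest in markers of skeletal muscle, thymocytes, heart or pancreas, where 1410 of all genes were called.

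In wild type lung edgeR called 0 of the 10 genes for hypoxia, where it called 4.98% of all genes. DESeq2 and limma voom also called 0 of the 10. At an unadjusted p under 0.05 edgeR gave 0 of the 10, with no share of all genes at hand. The median over the 10 genes was -0.38 on the log2 scale, and 9 of the 10 values were negative. Between the genotypes in room air edgeR also called 0 of the 10, where it called 0.0761% of all genes. At an unadjusted p under 0.05 there were 2 of the 10 (Hspb1 and Hspe1), again with no share of all genes to set beside them. There DESeq2 and limma voom each called 1 of the 10, and 1084 and 974 of all genes. Without wild type room air sample 3, the one with the lowest share of reads in genes, 3 of the 10 and 2198 of all genes were called in room air, against 12 of all genes with it. The hypoxia effect was not shown to differ between genotypes for any of the 10: edgeR called 0, where 0.501% of all genes were called. At an unadjusted p under 0.05 there were 6, with no share of all genes at hand, so nothing is read from this count. DESeq2 called 3 of the 10 and 485 of all genes, and limma voom 1 and 85. Hspa8 came closest, with a difference between the hypoxia effects of 1.81 ± 0.41 (SE, log2; adjusted p = 0.0674). The comparison of knockout with wild type in hypoxia shares its samples with both hypoxia comparisons, so these counts are not independent.

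**Figure D3:**
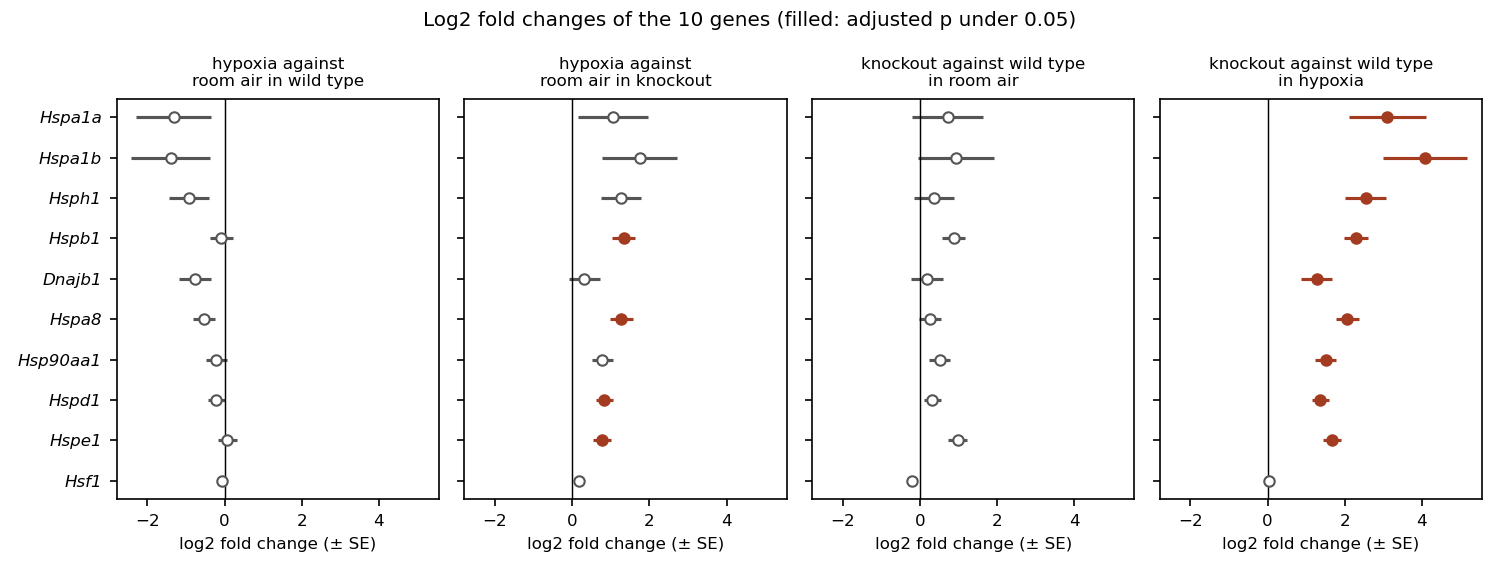
Log2 fold changes with standard errors (x axis) are drawn for the 10 heat shock genes (y axis) in 4 comparisons, filled where the adjusted p is under 0.05. All 9 genes other than Hsf1 are filled for knockout against wild type in hypoxia, 4 for hypoxia in the knockout, and none in the other comparisons.

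Levels per kilobase of exon put the genes on 1 scale. In wild type hypoxia Hspa8 was highest at 52.8 ± 19.2 CPM per kb (SD, n = 4), followed by Hspb1 at 34.2 ± 6.23 and Hsp90aa1 at 33.2 ± 5.70, which overlap. Hspa1b at 6.15 ± 7.11 and Hspa1a at 4.95 ± 6.03 CPM per kb were lowest there, below Hsf1. In knockout hypoxia Hspa8 stood at 220.5 ± 27.9, Hspb1 at 168.1 ± 49.0 and Hspa1b at 103.8 ± 62.6 CPM per kb, so Hspa1b, second from the bottom in wild type hypoxia, was the third here. Its spread overlaps those of Hsp90aa1 (94.0 ± 20.9) and Hsph1 (75.5 ± 27.7), and Hspa1a (42.2 ± 25.6) overlaps Hspd1 (40.6 ± 9.84). Reads shared with copies may lower the levels of several of these genes.

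The 9 genes other than Hsf1 varied together from sample to sample. Over the 16 samples, Pearson's r of log2 CPM ran from 0.73 to 0.98 over the 36 pairs without Hsf1 (median 0.92), and from 0.47 to 0.99 once group means were removed (median 0.84). The 9 pairs with Hsf1 ran from -0.22 to -0.004, and from -0.47 to -0.16 within groups. The samples share a library preparation and depth for all genes, so these values are descriptions. Samples of 1 group also differed widely: Hspa1b differed 16.2-fold among the 4 wild type room air samples and 9.27-fold among the 4 knockout room air samples. In the 4 room air samples that had both an A and a B library, the libraries differed by a median of 1.10-fold over the 10 genes. The largest difference, 1.59-fold, was that of Hsf1 in knockout room air sample 2, and it exceeds the 1.09-fold span of Hsf1 among the summed samples of that group.

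The 8 genes whose profile over the 16 samples came nearest to the mean of the 10, among 11939 genes with at least 5 CPM on average, were Ahsa2, Stip1, P4ha1, Fkbp4, Chordc1, Ahsa1, Hsp90ab1 and Dnaja4. Their r ran from 0.97 to 0.99, and from 0.92 to 0.97 within groups. Ahsa1 encodes an activator of the HSP90 ATPase and Ahsa2 its relative, Stip1 the HSP70 to HSP90 adaptor HOP, Fkbp4 a cochaperone of steroid receptors, Chordc1 an HSP90 partner, Hsp90ab1 the constitutive HSP90 and Dnaja4 an HSP40. P4ha1, a collagen prolyl hydroxylase subunit, is no chaperone of the cytosol. Stip1 averaged 93.8, 66.1, 112.6 and 254.5 CPM in wild type room air, wild type hypoxia, knockout room air and knockout hypoxia, in that order, and Hsp90ab1 averaged 977, 854, 1171 and 1958 CPM.

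Cirbp encodes a cold-inducible RNA-binding protein that rises on mild cooling and falls on warming in cultured cells. It stood at 64.6, 43.8, 45.0 and 51.6 CPM in wild type lungs in room air and at 60.6, 52.4, 43.9 and 36.2 CPM in wild type hypoxia. It stood at 52.3, 31.4, 34.7 and 69.0 CPM in knockout room air and at 22.6, 20.2, 18.9 and 18.9 CPM in knockout hypoxia. Knockout hypoxia samples were the lowest of all 16. Cirbp fell by 1.22 ± 0.22 (SE, log2) with hypoxia in the knockout (adjusted p = 0.00124) and was 1.26 ± 0.22 lower in knockout than in wild type hypoxia (adjusted p = 0.00165). Against the mean profile of the 10 heat shock genes its r was -0.86 over 16 samples and -0.66 within groups. The other cold-inducible gene tested, Rbm3, did not mirror it: its group means ran from 16.3 to 19.3 CPM, and it was called in no comparison. The r of Rbm3 was 0.39 over 16 samples and 0.61 within groups, positive where that of Cirbp was negative. Body or tissue temperature is not given in the labels, and its part in these values was not tested.

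**Figure D4:**
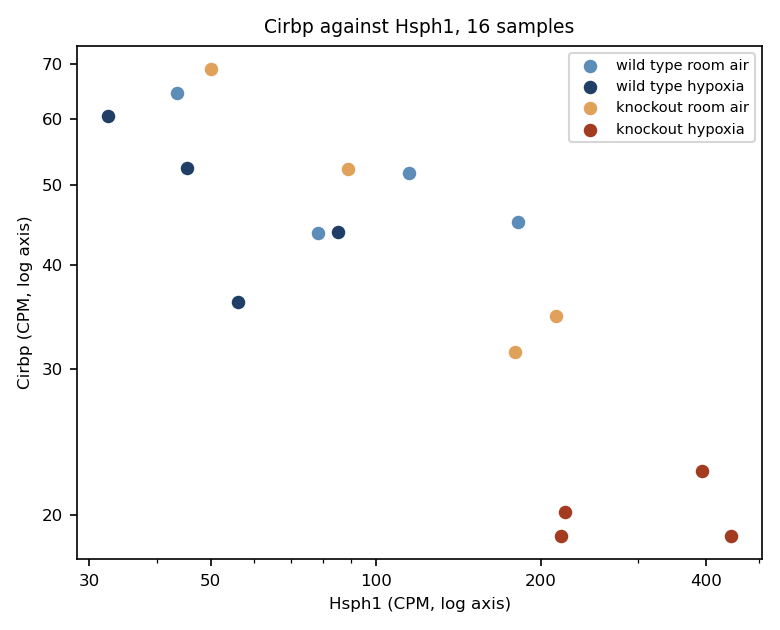
Cirbp (y axis, CPM, log axis) is plotted against Hsph1 (x axis, CPM, log axis) in 16 samples coloured by group. The 4 knockout hypoxia samples lie at 18.9 to 22.6 CPM of Cirbp and at 217.9 CPM or more of Hsph1, and knockout room air samples 2 and 3, high in Hsph1, have the next lowest Cirbp.

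Many other chaperones of the cytosol were called too. Of 30 other cytosolic chaperones and cochaperones, 17 were called higher and 0 lower in knockout than in wild type hypoxia, against 11.0% of all genes higher and 12.1% lower, with a list median of 0.50 on the log2 scale. Fkbp4 was 1.21 ± 0.15, Ahsa1 1.35 ± 0.17, St13 (the HSP70-interacting protein HIP) 1.03 ± 0.14 and Hspa4l (an HSP110 relative) 1.61 ± 0.21 higher on that scale. Bag3, known as a target of HSF1, gave 0.21 ± 0.26 and was not called. The subunits of the cytosolic chaperonin, which folds actin and tubulin, were all called higher, 8 of 8, by small amounts: Cct7 by 0.72 ± 0.10 and Cct2 by 0.32 ± 0.08. With hypoxia in the knockout 12 of the 30 and 6 of the 8 rose, against 7.93% of all genes. In wild type 2 of the 30 (Hspa12b and Hspa12a) and 0 of the 8 rose, against 2.67% of all genes. Hspa12b, a distant HSP70 relative of endothelium, rose in both genotypes, by 0.87 ± 0.11 and 1.17 ± 0.11.

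Other chaperones of the mitochondrion were called about as often as genes at large. Of 14 other mitochondrial chaperones and proteases, 2 were called higher (Grpel2 by 0.31 ± 0.08 and Yme1l1 by 0.41 ± 0.14, log2) and 1 lower (Afg3l2, -0.48 ± 0.10) in knockout than in wild type hypoxia, where 11.0% of all genes were called higher and 12.1% lower, and the list median was 0.04. Hspa9, the mitochondrial HSP70, gave 0.18 ± 0.09 and Lonp1, a matrix protease of the mitochondrial stress response, -0.11 ± 0.08, neither called. Among 6 tested small heat shock proteins other than Hspb1, Hspb8 was called higher (0.61 ± 0.12) and Cryaa, under 1 CPM on average in every group, lower. None of 6 tested heat shock factors and regulators other than Hsf1 was called in any comparison by edgeR.

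Chaperones of the endoplasmic reticulum are controlled by the unfolded protein response and not by HSF1. Of these, 14 of 14 were called higher in knockout than in wild type hypoxia, against 11.0% of all genes. The list median was 0.75 on the log2 scale. Hspa5, which encodes BiP, averaged 601 ± 123 CPM (SD, n = 4) in room air and 592.5 ± 43.1 in hypoxia in wild type, and 782 ± 92.8 and 1629 ± 213 in the knockout. It was 1.46 ± 0.13 higher in knockout than in wild type hypoxia (SE, log2; adjusted p = 2.57e-06). Its hypoxia effect differed between genotypes by 1.08 ± 0.18 (adjusted p = 0.00872), as did those of Creld2 (1.13 ± 0.14) and Manf (1.24 ± 0.20). Outside the endoplasmic reticulum such a difference was called for Fkbp4 (1.07 ± 0.21), Ahsa1 (1.16 ± 0.24) and Cct7 (0.66 ± 0.14).

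**Figure D5:**
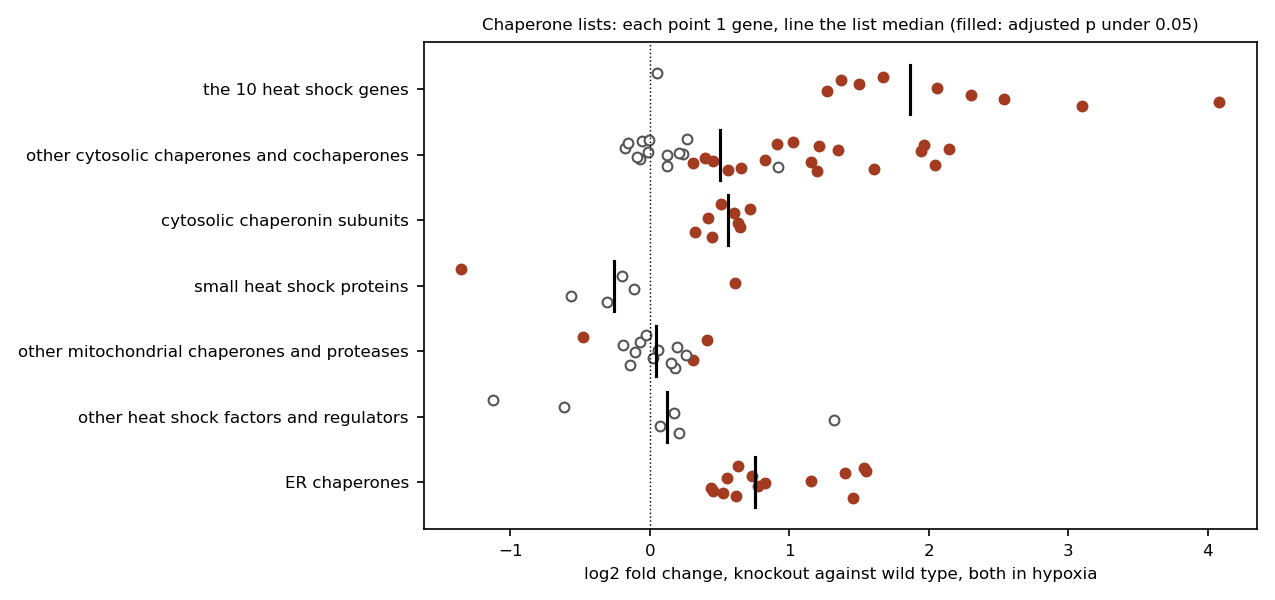
Log2 fold changes of knockout against wild type, both in hypoxia (x axis), are drawn for 7 lists of chaperone genes (y axis), 1 point per gene, filled where the adjusted p is under 0.05, with a line at the list median. The 10 heat shock genes have a median of 1.87, endoplasmic reticulum chaperones 0.75, cytosolic chaperonin subunits 0.56 and other mitochondrial chaperones 0.04.

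Handling at sacrifice is known to raise HSP70 genes and immediate early genes alike. Of 20 immediate early genes, hypoxia called 0 higher and 3 lower in wild type (Atf3, Jun and Klf6) and 0 higher and 6 lower in the knockout. Of all genes, 2.31% and 9.10% were called lower there. In knockout against wild type hypoxia 2 of the 20 were called higher (Atf3 by 0.83 ± 0.20 and Klf6 by 0.31 ± 0.09, log2), where 11.0% of all genes were. The summed level of the 20 immediate early genes, here without TMM scaling, ran from 1936 to 2905 CPM in wild type room air and 1324 to 2336 in wild type hypoxia. In the knockout it ran from 2525 to 4443 in room air and 1758 to 2475 in hypoxia. The 1324 CPM was that of wild type hypoxia sample 4, whose values TMM scaling raises. Of 15 clock genes, 12 had negative values for hypoxia in wild type (median -0.47 on the log2 scale) and 13 positive ones in the knockout (median 0.39), and the median between the genotypes was -0.85 in room air and 0.12 in hypoxia. Ciart, which encodes a repressor of the clock, was the only gene of the list called, lower with hypoxia in wild type, higher with hypoxia in the knockout, higher in knockout than in wild type hypoxia and different between the hypoxia effects. The part of handling and of the hour of sacrifice in the heat shock values was not tested.

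Markers of other organs stood high in several samples. Summed markers, again without TMM scaling, reached 1580 CPM for skeletal muscle in wild type room air sample 1, 102 and 87.7 CPM for thymocytes in knockout room air samples 3 and 4, and 1031 CPM for heart in knockout room air sample 3. Pancreas markers marked a whole group: they summed to 1523, 125, 15.6 and 3.41 CPM in knockout hypoxia samples 1 to 4 and to 1.26 to 2.63 CPM in the other 12 samples. Both pancreas markers that could be tested, Ctrl and Pnliprp1, were called higher there. Each list had 8 genes, none at 0 in every sample. Knockout hypoxia sample 4, the lowest of its group for pancreas markers, was the highest of all 16 for Hspa1a, Hspa1b, Hsph1, Hspa8, Hsp90aa1, Hspd1 and Hspe1. Knockout hypoxia sample 1, the highest for pancreas markers, was the highest of all 16 for Hspb1 (216.3 CPM). For Hspa1a, Hspa1b, Hsph1, Hspa8, Hsp90aa1 and Hspd1 it came next after sample 4. The part of pancreas content in these values was not tested. Without wild type room air 1, knockout room air 3 and 4 and knockout hypoxia 1, 8 of the 10 heat shock genes were called higher in knockout than in wild type hypoxia, and Hspa1a was lost (2.90 ± 0.99, adjusted p = 0.0738). Of all genes, 3078 were called there in either direction, against 3633 in the main fit. Without knockout hypoxia 1 and 2 the count was 7, with 2757 of all genes called. A fit with knockout hypoxia 4 as the lone sample of its group, assumed to vary like the others, cannot measure the spread of that group. Its calls are not given. Leukocyte markers were called lower in 4 of 7 in knockout against wild type hypoxia, Ptprc by 0.41 ± 0.07 (log2); endothelial markers were called higher in 3 of 6 and lower in 2; fibroblast and smooth muscle markers lower in 3 of 6; adipocyte markers lower in 2 of 8; and epithelial markers lower in 2 of 8, against 12.1% of all genes called lower and 11.0% higher. Sums without TMM scaling understate wild type hypoxia sample 4, whose values TMM raises and whose epithelial sum, 26790 CPM, was the lowest of its group. On that scale summed endothelial markers ran from 2553 to 3755 CPM in wild type hypoxia and from 3603 to 4022 in knockout hypoxia. Summed leukocyte markers ran from 3079 to 6819 and from 4701 to 6030 CPM. Their part in the heat shock values was not tested. Of the samples with the lowest share of reads in genes, wild type room air 3 (25.4%) was the highest of its group for Hspa1b. Wild type hypoxia 1 (35.5%) and knockout hypoxia 3 (37.7%) were the lowest of theirs. For Hspe1 these samples stood at 21.9, 15.3 and 44.0 CPM, the first again the highest of its group and the others not the lowest. The part of this share in the heat shock values was not tested.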

How the data were processed

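Per the labels' protocols, ribosomal RNA was removed from total lung RNA before directional libraries were built. Per the submitters' processing notes, Trim Galore, TopHat2 and HTSeq were used with mm10; the sources used here give neither their versions nor the annotation nor the strand setting. The authors deposited raw counts for each gene symbol; 5 lines that name no gene were left out of library sizes. A and B libraries of 1 number, whose letters the labels do not explain, were summed. Samples are taken as separate mice, which the labels imply; p-values measure the spread between them.

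All 4 groups entered 1 quasi-likelihood fit in edgeR 4.0.16 (R 4.3.3) with TMM scaling, filterByExpr (minimum count 10, minimum total 15) and two-sided tests with Benjamini-Hochberg adjustment over 15766 genes; 8296 were removed. The biological coefficient of variation was 15.8%. Wilson intervals cover counting error only. Alternatives were RLE and upper quartile scaling, no filter, DESeq2 1.42.0, limma 3.58.1 (voom), only the groups compared, a replicate block, the deeper library of each pair, summed Hspa1a and Hspa1b, and each sample left out; 4 more were chosen after seeing the data (3 that leave out samples with markers of other organs, and a GC trend removed).

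The 10 genes and the lists were chosen with earlier results of these data known. Named are all 10, Arg2, Cirbp, Rbm3, up to 4 called genes of each list per comparison with the smallest p, and the 8 nearest profiles; Cct2, Yme1l1, Bag3, Hspa9, Lonp1 and others outside this rule were named after their values were seen. Positions are GRCm38 with GENCODE vM21. The 50-base windows come from its transcripts.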

Additional observations from a re-analysis of the deposited data

Results flagged for a closer look

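In groups of 4 samples, a sample was marked when its gap to the nearest other sample exceeded Dixon's 95% critical value as a share of the group's range; chance marks about 1 in 20 groups, and 5 of 40 were marked. Wild type hypoxia sample 3 stood apart for Hspa1a (41.3 CPM), Hspa1b (46.8 CPM) and Hspd1 (47.1 CPM), above the other 3 samples of its group. Wild type hypoxia sample 4 stood below its group for Hspb1 (25.7 CPM). Knockout hypoxia sample 1 stood above its group for Hsf1 (34.0 CPM).

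Genes of the lists whose hypoxia effect differed between knockout and wild type by the interaction test of edgeR (adjusted p under 0.05) were Fkbp4 (1.07, log2), Ahsa1 (1.16), Cct7 (0.66), Creld2 (1.13), Manf (1.24), Hspa5 (1.08), Ciart (2.37), Ptprc (-0.55) and Themis (-1.83). None of the 10 heat shock genes was among them.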

How the results depend on the processing

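Of 1430 values of single heat shock genes recomputed under the alternatives, 1358 kept their direction and their side of the threshold, 42 lost a call, 17 gained one and 13 turned sign, none of the 13 being a called value. Most of the 1430 could not lose a call, since the main fit called only 13 results. Of the 42, 13 were of Hspa1a, 13 of Dnajb1 and 5 of Hspa1b between the genotypes in hypoxia. Another 7 were of Hspe1 for hypoxia in the knockout. Hypoxia in wild type gave 0 calls under all 29 alternatives. Knockout against wild type in hypoxia gave 6 to 9, leaving aside the fit with knockout hypoxia sample 4 as the lone sample of its group. Calls for hypoxia in the knockout ran from 2 to 5 when single samples were left out (2 without knockout hypoxia sample 4, where 2011 of all genes were called). They numbered 2 with the 4 organ-marker samples left out (1410 of all genes) and reached 6 with limma voom (2926 of all genes). Knockout against wild type in room air gave 1 call with DESeq2, 1 with limma voom and 0 to 3 with single samples left out (3 without wild type room air sample 3). The difference between the hypoxia effects gave 3 calls with DESeq2 and 1 with limma voom, where 485 and 85 of all genes were called. With single samples left out it gave 0 to 1 (1 without wild type room air sample 1). Whether the replicate numbers pair the samples was not settled. Of 24 same-numbered pairs, 12 correlated above 0.1 (range -0.33 to 0.46), with no values for differently numbered pairs to set them against. The replicate block gave 1 call in room air and 1 for the difference. Over all genes, calls between the genotypes in room air, 12 as reported, ran from 0 to 2198 over the alternatives. The 2198 came without wild type room air sample 3, and there were 1084 in DESeq2, 974 in limma voom and 238 with the replicate block.

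Signs turned as follows on the log2 scale when single samples were left out: Hspe1 (-0.10 to 0.31), Hspb1 (-0.21 to 0.11) and Hsp90aa1 (-0.38 to 0.10) for hypoxia in wild type, Dnajb1 in room air (-0.069 to 0.42) and Hsf1 in hypoxia (-0.022 to 0.10) between the genotypes. With the 4 organ-marker samples left out Dnajb1 in room air was -0.013 and Hsf1 in hypoxia -0.022; Hsf1 was -0.025 without knockout hypoxia 1 and 2 and -0.021 with the lone sample. The cause was not tested. With 4 samples a group and several-fold spread in room air, Dnajb1, Hspa1a and Hspa1b had the least certain calls between the genotypes in hypoxia. These held in 6, 8 and 12 of 16 fits that each left out 1 sample.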
